A study of Mus musculus with 6 samples.

Results

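The G2 and mitosis genes are 45 genes named from textbook knowledge, from cyclins and spindle checkpoint proteins to 3 enzymes of nucleotide synthesis that mark cycling cells. Of these, 39 were found by current or older symbol in the authors' deposited comparison table, out of 17916 genes in all, and they hold 64 of its 25697 rows. No row was matched here for Aurkb, Cenpf, Kif20a, Mki67, Racgap1 or Smc4, which were not analysed. The question asked of the list was whether proliferation genes fell alongside the rise of Cdkn1a, the gene of the CDK inhibitor p21.

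Ovaries came from Swiss mouse pups on postnatal day 3 to 4 and were kept whole for 96 h as organ cultures. Of the 6 samples, 3 were exposed to 5 µM 3-methylcholanthrene (3MC), one of the polycyclic aromatic hydrocarbons, a dose that the labels say was picked to be overtly toxic. The 3 other samples received 0.01% DMSO, the vehicle. All of them had medium with 5% fetal calf serum and added growth factors (stem cell factor at 25 ng/ml, basic fibroblast growth factor at 40 ng/ml, leukemia inhibitory factor at 50 ng/ml). RNA was read on an Illumina Mouse Ref-8 v2 BeadChip. Whether the 3 samples of a group are separate cultures or animals is not stated. The p-values here therefore reflect only the spread among these samples, which may be technical. That spread is taken mostly from all tested probes together and less from the probe itself.

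A cell enters mitosis when cyclin B and CDK1 form an active kinase. The spindle assembly checkpoint then holds the anaphase-promoting complex back until every kinetochore is attached to microtubules. After DNA damage, p53 raises p21, which inhibits the cyclin-dependent kinases. Under that inhibition the DREAM complex assembles and represses many G2 and mitosis genes through short promoter elements called cell cycle genes homology regions (CHR). In the newborn ovary the oocytes are arrested in meiotic prophase, so the cells that divide by mitosis are somatic cells such as granulosa and stromal cells.

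Promoter stretches of 6 members are shown because CHR elements are the sequences through which DREAM acts on such genes. They run from 120 bases before to 30 bases after the annotated start, are taken from RefSeq (GRCm38.p6) and are written in the direction of transcription. Capitals mark the CHR letters TTTGAA or TTTAAA and the CCAAT box, each on either strand, so that TTCAAA and ATTGG are marked as well. The stretches are chr6:66535101-66535250 (plus strand) for Mad2l1, chr4:118437314-118437463 (minus strand) for Cdc20, chr17:71526828-71526977 (minus strand) for Ndc80, chr10:69352883-69353032 (minus strand) for Cdk1, chr7:122159315-122159464 (plus strand) for Plk1 and chr5:30666766-30666915 (plus strand) for Cenpa. The first 3 genes passed the test as lower in 3MC and the last 3 did not pass.
Mad2l1: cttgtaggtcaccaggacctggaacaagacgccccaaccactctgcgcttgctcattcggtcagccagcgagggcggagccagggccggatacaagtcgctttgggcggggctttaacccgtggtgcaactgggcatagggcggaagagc
Cdc20: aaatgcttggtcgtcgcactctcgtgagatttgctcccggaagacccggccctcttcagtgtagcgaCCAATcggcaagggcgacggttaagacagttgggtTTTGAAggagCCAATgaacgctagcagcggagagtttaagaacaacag
Ndc80: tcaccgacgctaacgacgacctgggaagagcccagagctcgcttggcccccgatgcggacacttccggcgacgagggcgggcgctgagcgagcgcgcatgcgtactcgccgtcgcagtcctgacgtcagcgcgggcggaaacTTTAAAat
Cdk1: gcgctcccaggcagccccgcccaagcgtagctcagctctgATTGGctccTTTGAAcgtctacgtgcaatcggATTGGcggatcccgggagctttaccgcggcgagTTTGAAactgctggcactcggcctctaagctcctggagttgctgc
Plk1: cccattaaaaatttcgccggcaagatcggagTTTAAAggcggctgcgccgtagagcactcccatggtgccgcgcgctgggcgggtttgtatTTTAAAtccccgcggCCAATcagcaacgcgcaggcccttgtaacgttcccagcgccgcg
Cenpa: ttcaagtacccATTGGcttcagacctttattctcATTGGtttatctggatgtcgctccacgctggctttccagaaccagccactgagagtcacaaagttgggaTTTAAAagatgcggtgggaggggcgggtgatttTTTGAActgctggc

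The Mad2l1 stretch holds none of these letters, while Cdc20 holds TTTGAA at -18 and Cdk1 holds it at -71 and -15, where -1 is the base before the start. Ndc80 has TTTAAA at 23 bases into the transcript, Plk1 has it at -89 and -29, and Cenpa has TTTAAA at -17 and TTTGAA at 17. The reference table held a window of 250 bases before to 50 bases after the start for 36 of the 45 members. In this full window, 29 of the 36 members (80.6%) had at least 1 of the CHR forms, against 30.6% of 27025 genes. TTTGAA alone was present in 24 members (66.7%, against 20.2% of all genes), TTTAAA in 11 (30.6%, against 14.9%) and CCAAT in 27 (75%, against 41.1%). A CHR form was found in 4 of the 5 members with a window that passed as lower in 3MC (Bub1b, Birc5, Ndc80 and Cdc20). It was also found in 9 of the 12 that were tested and not lower, among them Cdk1, Plk1, Aurka and Cenpa. The only form of Birc5 lay at -220. From 60 bases before to 50 bases after the start, 66.7% of the 36 members had a form, against 10.5% of all genes. In that range it was found in 3 of the 5 lower members and in 6 of the 12 not lower. Such a match is a description of letters and not a measured binding site.

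Cdkn1a, the reason for asking, was higher on all 3 of its probes. Its brightest probe had normalized log2 signals of 12.73, 12.27 and 12.23 in the 3MC arrays, against 8.78, 8.81 and 8.96 in the DMSO arrays. The log2 fold change, 3MC minus DMSO, was 3.56 ± 0.101 (limma's standard error, n = 3 each, Benjamini-Hochberg adjusted p = 6.08e-25). The other probes gave 3.37 and 2.72, and no array of one group reached the other group on any of the 3.

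The response of the G2 and mitosis genes was uneven and small beside that of Cdkn1a. Mad2l1 and Bub1b of the spindle checkpoint, their target Cdc20, Birc5 and Incenp of the chromosomal passenger complex and Ndc80 of the kinetochore were lower in 3MC, led by Mad2l1. Cdk1, Cenpa and the tested spindle motors did not pass, and Spc24 and Tk1 had probes that passed in opposite directions. A row of the authors' table had to be linked to 1 probe by its ratio before it had values by array. That link was found for 36 of the 64 rows, and for 24 of the 39 genes. The probe of 20 genes passed the signal filter, which kept probes brighter on average than the median probe, and 4 genes (Ccna2, Ccnb2, Nuf2 and Smc2) had only a dimmer probe.

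By the probe of highest mean signal, 7 of the 20 tested genes were lower in 3MC (35%), 1 was higher (5%) and 12 did not pass at an adjusted p of 0.05. The background over 7643 genes linked in the same way was 21.6% lower and 19.5% higher. These counts include Spc24 among the lower and Tk1 as the higher gene, and a second probe of each passed the other way. At an unadjusted p under 0.05, 9 were lower and 1 was higher, against 27.4% and 24.6% of the 7643 genes. Counted by rows, 12 of the 64 (18.8%) were lower and 2 (3.13%) were higher, against 8.2% and 7.89% of all probes on the array. These shares are counted unlike, since only the 36 linked rows could be called and the probes of the array needed no link. Several of the lower rows are probes of the same gene, as for Birc5 and Cdc20. All 3 values of 3MC lay below all 3 of DMSO in 10 of the 20 genes and above them in 2, against 28.1% and 24.3% of the 7643 genes. The median log2 fold change was -0.13 over the 20 genes and -0.05 over the 7643. These are descriptions: the genes were chosen with results of these data known, a row near a ratio of 1 was less likely to be linked, and a gene that passed the filter did so by its own signal. The call counts rest on the scaling, since centring each array on its median in place of quantile normalization left 2 lower (Mad2l1 and Cdc20) and 0 higher. With that scaling 31% of all passing probes were higher, against 49% with the quantile scaling.

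**Figure D1:**
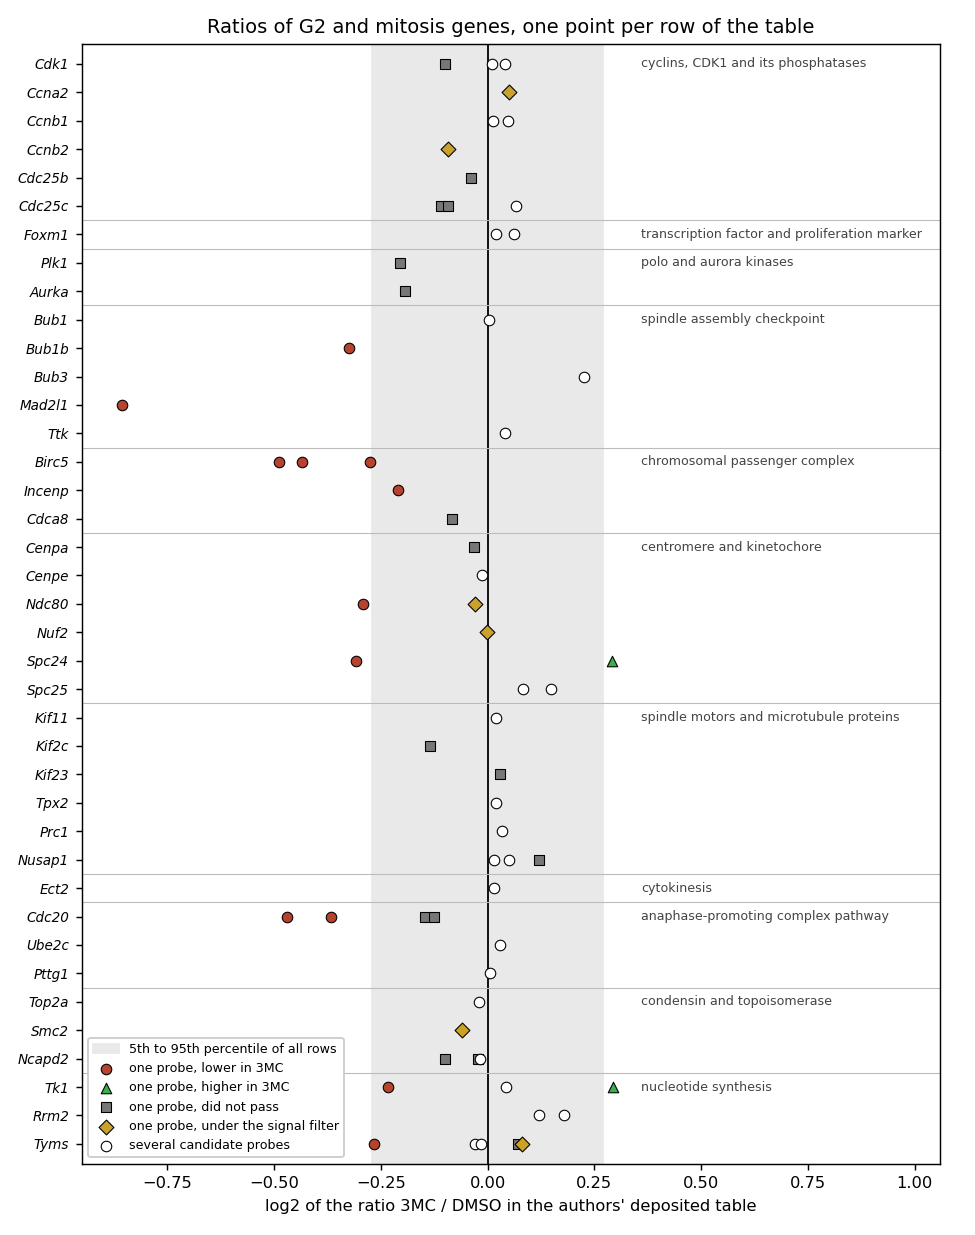
Log2 of the authors' deposited ratio of 3MC to DMSO (horizontal axis) for each of the 64 rows of the 39 genes (vertical axis, grouped by role), with the marker showing whether the row was linked to 1 probe and how that probe was called. The grey band holds the 5th to 95th percentile of all 25697 rows, -0.27 to 0.27, and 9 member rows lie below it and 2 above it.

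Spindle assembly checkpoint genes held the strongest decrease. Mad2l1 encodes MAD2, the protein that binds CDC20 and keeps the anaphase-promoting complex inactive. Its log2 signals were 9.16, 8.86 and 8.99 in the 3MC arrays, against 9.85, 9.89 and 9.90 in the DMSO arrays. Every 3MC array was below every DMSO array by more than the spread within either group. The log2 fold change was -0.87 ± 0.0886, which is 1.83-fold lower (adjusted p = 5.59e-10, limma). Over the 17 alternatives it stayed between -0.997 and -0.800 with an adjusted p of at most 0.00119.

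Bub1b, whose product BUBR1 joins MAD2 and CDC20 in the mitotic checkpoint complex, was the other tested member of this group. It had 7.63, 7.60 and 7.42 in the 3MC arrays, against 7.90, 7.96 and 7.92 in the DMSO arrays. The groups did not overlap, and the log2 fold change was -0.38 ± 0.0868 (adjusted p = 0.000878, limma). With median centring it was -0.47, with an adjusted p of 0.0860. Bub1, Bub3 and Ttk, the further checkpoint kinases and adaptor, had rows that fitted 2 to 6 candidate probes, as did every unlinked row. The authors' deposited table gave a log2 ratio of 0.00 for Bub1, 0.23 for Bub3 and 0.04 for Ttk. For Bub3, which carries BUB1 and BUBR1 to kinetochores, 1 of 3 candidate probes passed as higher, so its call is not settled.

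The chromosomal passenger complex of Aurora B, INCENP, survivin and borealin corrects faulty kinetochore attachments and guides cytokinesis. Birc5, which encodes survivin, was lower on all 3 of its probes. The brightest had 10.60, 10.64 and 10.84 in the 3MC arrays, against 10.96, 10.92 and 11.01 in the DMSO arrays, with no overlap. Its log2 fold change was -0.27 ± 0.0878 (adjusted p = 0.0163, limma), and those of the other probes were -0.48 (adjusted p = 4.24e-05) and -0.44 (adjusted p = 0.000354). The brightest probe lost its call without 3MC replicate 1 (-0.23, adjusted p = 0.0703) and without 3MC replicate 2 (-0.25, adjusted p = 0.0652). The same held for DMSO replicate 3 (-0.25 without it, adjusted p = 0.0683). Its call was also lost under median centring (-0.40, adjusted p = 0.105) and with a smaller background offset of 16 (-0.28, adjusted p = 0.0507).

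Incenp, the scaffold of the complex, had 8.71, 8.65 and 8.65 in the 3MC arrays, against 8.80, 9.03 and 8.86 in the DMSO arrays. The groups lay apart but close, with a log2 fold change of -0.22 ± 0.0870 (adjusted p = 0.0451, limma). This call was lost under 10 of 15 alternatives, among them without each single array other than DMSO replicate 1, where the log2 fold change was -0.24 to -0.16 and the adjusted p between 0.0540 and 0.227. Cdca8, which encodes borealin, did not pass (-0.09, adjusted p = 0.467).

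Among kinetochore genes, Ndc80 encodes the subunit that binds microtubules directly. It had 7.72, 7.81 and 7.83 in the 3MC arrays, against 8.11, 8.12 and 8.12 in the DMSO arrays. The groups did not overlap, and the log2 fold change was -0.33 ± 0.0844 (adjusted p = 0.00263, limma). Its second probe was under the signal filter.

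Spc24, a partner of NDC80 at the inner end of the complex, had probes in opposite directions. The brighter had 7.90, 7.88 and 7.96 in the 3MC arrays, against 8.15, 8.42 and 8.20 in the DMSO arrays (log2 fold change -0.34 ± 0.0887, adjusted p = 0.00292, limma). The other had 7.91, 8.00 and 7.87 in the 3MC arrays, against 7.58, 7.45 and 7.73 in the DMSO arrays (0.34 ± 0.0889, adjusted p = 0.00319, limma). Both sets of groups were fully apart, so no direction is given for the gene beyond its probes. Cenpa, the histone variant that marks centromeres, was among the brighter members and did not pass (-0.03 ± 0.0858, adjusted p = 0.809). The authors' deposited table gave a log2 ratio of -0.01 for Cenpe, a kinetochore motor, and -0.00 for Nuf2, the partner of NDC80. Neither was tested, since Cenpe had no linked probe and that of Nuf2 was under the signal filter. The rows of Spc25, the partner of SPC24, had 0.15 and 0.08 in the authors' deposited table.

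Cdc20, the activator of the anaphase-promoting complex and the target of MAD2, was lower on 2 of its 4 probes. The brightest had 9.31, 9.42 and 9.43 in the 3MC arrays, against 9.78, 9.84 and 9.66 in the DMSO arrays. The groups did not overlap, with a log2 fold change of -0.37 ± 0.0867 (adjusted p = 0.000930, limma). The second passing probe gave -0.49 (adjusted p = 4.36e-05), and the others gave -0.18 (adjusted p = 0.0970) and -0.14 (adjusted p = 0.327). Across the 17 alternatives the brightest probe kept its call, with adjusted p values from 0.000332 to 0.0490. Ube2c, the ubiquitin-conjugating enzyme of the complex, and Pttg1, its substrate securin, stood at 0.03 and 0.01 as log2 ratios per the authors' deposited table.

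**Figure D2:**
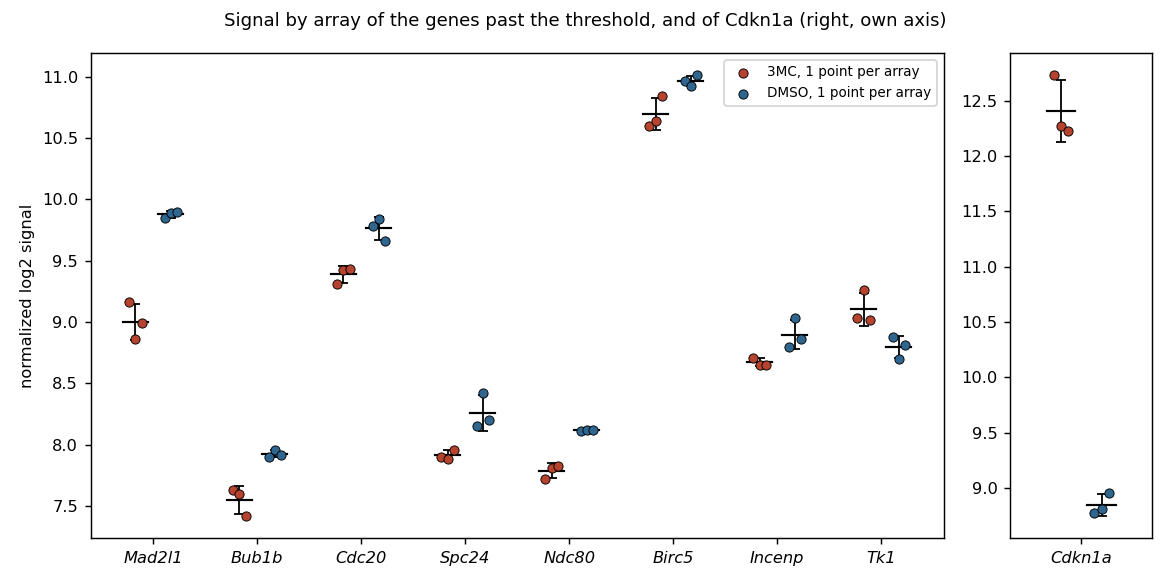
Normalized log2 signal (vertical axis) of the 8 genes whose probe of highest mean signal passed the test, with Cdkn1a on its own axis at the right. Points are single arrays, 3 of 3MC at the left and 3 of DMSO at the right of each gene, bars are means and whiskers SD, and for each probe shown the groups do not overlap. A further probe of Spc24 and one of Tk1, not drawn here, passed in the other direction.

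Neither of the tested mitotic kinases passed. Plk1, which drives mitotic entry and spindle formation, had 9.16, 9.25 and 9.27 in the 3MC arrays, against 9.36, 9.49 and 9.46 in the DMSO arrays. The groups were apart and the log2 fold change was -0.21 ± 0.0855 (adjusted p = 0.0546, limma). It passed under 5 of 15 alternatives, one of them DMSO replicate 1 left out (-0.25, adjusted p = 0.0481). Aurka, the centrosomal Aurora kinase, had 9.23, 9.42 and 9.61 in the 3MC arrays, against 9.58, 9.70 and 9.57 in the DMSO arrays. Here the groups overlapped, and the log2 fold change was -0.20 ± 0.0924 (adjusted p = 0.0972). It failed under 14 of 15 alternatives, reaching -0.10 without 3MC replicate 1 (adjusted p = 0.449), and passed without 3MC replicate 3, at -0.29 (adjusted p = 0.0260).

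Cdk1 itself, listed under its older name Cdc2a, had 10.03, 9.94 and 9.89 in the 3MC arrays, against 10.07, 10.19 and 9.90 in the DMSO arrays. These groups overlapped and the gene did not pass (-0.10 ± 0.0891, 95% interval -0.28 to 0.08, adjusted p = 0.432, limma). Its interval leaves out a decrease as large as that of Mad2l1. The phosphatases that activate CDK1 did not pass either, with -0.05 for Cdc25b and -0.13 for Cdc25c. In the authors' deposited table the cyclin genes Ccnb1, Ccnb2 and Ccna2 had log2 ratios from -0.09 to 0.05, and Foxm1, a transcription factor that activates G2 genes, had 0.06 and 0.02. None of these genes was tested, since Ccnb2 and Ccna2 were under the signal filter and Ccnb1 and Foxm1 had no linked probe. Their ratios do not show that they were unchanged.

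Of the spindle motors and microtubule proteins, 3 were tested and 0 passed, also at an unadjusted p under 0.05. Kif2c, a microtubule-depolymerising kinesin, had a log2 fold change of -0.14 with groups apart (adjusted p = 0.232). Kif23, a cytokinesis kinesin, had 0.03 and Nusap1, a microtubule-bundling protein, had 0.12 with groups apart (adjusted p = 0.275). Kif11, Tpx2 and Prc1, which separate the poles, nucleate microtubules and bundle the midzone, stood at 0.02 to 0.03 as log2 ratios per the authors' deposited table. Ect2, the activator of RhoA in cytokinesis, had 0.02 there. Among chromosome structure genes, the condensin subunit Ncapd2 did not pass (-0.12, adjusted p = 0.309), and Top2a, the topoisomerase that untangles sister chromatids, stood at a log2 ratio of -0.02 per the authors' deposited table.

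By the probe of highest mean signal, a nucleotide synthesis gene gave the only higher call of the list. Tk1, thymidine kinase of the salvage pathway, had 9.03, 9.26 and 9.02 on its brighter probe in the 3MC arrays, against 8.88, 8.70 and 8.81 in the DMSO arrays (0.31 ± 0.0896, adjusted p = 0.00821, limma). The call was lost without 3MC replicate 2, at 0.23 (adjusted p = 0.0808). It was also lost without DMSO replicate 2, at 0.25 (adjusted p = 0.0577). The dimmer probe of Tk1 had 6.27, 6.53 and 6.54 in the 3MC arrays, against 6.64, 6.93 and 6.75 in the DMSO arrays (-0.33, adjusted p = 0.00694). Both probes had groups apart in opposite directions, so no direction is given for the gene. Tyms, thymidylate synthase, did not pass on its brightest probe (0.07, adjusted p = 0.562) and was lower on a dimmer one whose groups overlapped (-0.32, adjusted p = 0.00992). For Rrm2, a ribonucleotide reductase subunit at log2 ratios of 0.12 and 0.18 per the authors' deposited table, 1 candidate probe of 1 row passed as higher and its call is not settled.

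**Figure D3:**
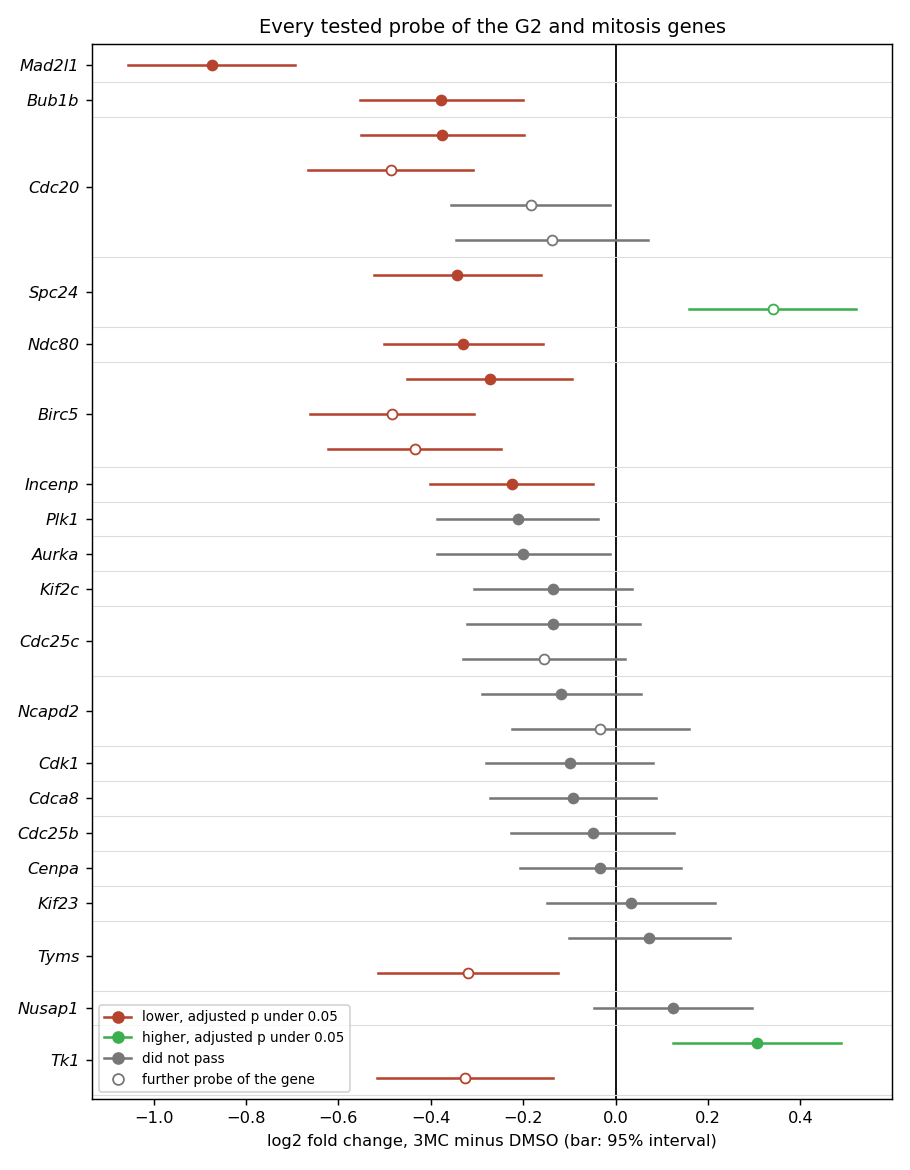
Log2 fold change, 3MC minus DMSO, with its 95% interval (horizontal axis) for all 30 tested probes of the 20 genes (vertical axis), where a filled point is the probe of highest mean signal and an open point a further probe. Birc5 is lower on each probe, Cdc20 on 2 of 4, and Spc24 and Tk1 have passing probes on both sides of 0.

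The genes with no settled probe can be bounded. For 13 of the 15 genes without a link, no candidate probe passed, and for 3 of these (Ttk, Cenpe and Ect2) every candidate was under the signal filter. Over all 28 unlinked rows the tested candidates had log2 fold changes from -0.04 to 0.25. None was as low as any of the 7 lower calls. By the authors' deposited ratio, averaged over a gene's rows, 29 of the 39 genes were within 1.1-fold of 1, as were 76.8% of all genes in that table. Only Mad2l1 was 1.5-fold or more lower and 0 genes were that much higher, against 0.988% and 1.13% of all genes in the authors' deposited table. At 1.2-fold the authors' deposited ratios put 4 of 39 genes lower (10.3%, against 5.07% of all genes) and 0 higher (against 4.74%). In such averages opposite rows cancel, as for the log2 ratios of Spc24 (0.29 and -0.31) and Tk1 (0.29, -0.23 and 0.04) in the authors' deposited table. The dim row of Ndc80 (-0.03 there) also draws its other row (-0.29) to a mean of -0.16.

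**Figure D4:**
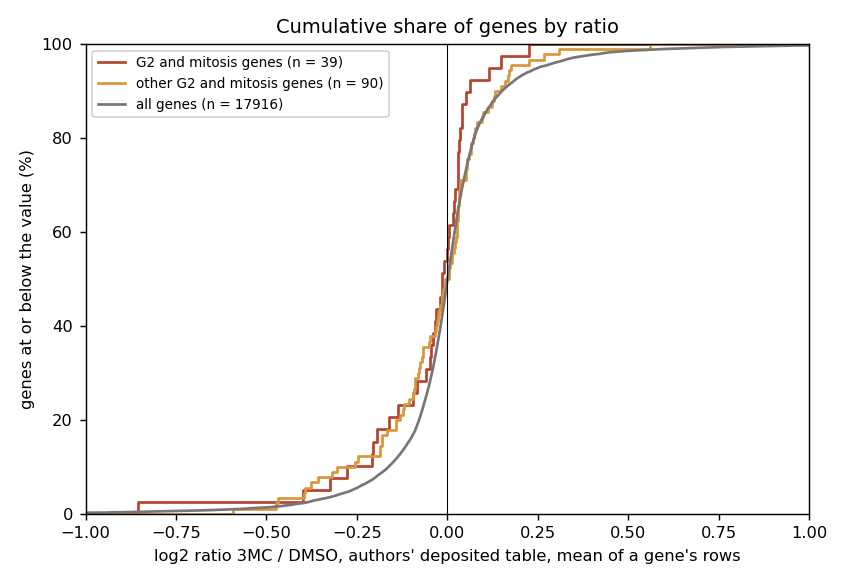
Share of genes (vertical axis, percent) at or below a value on the horizontal axis, which is the log2 of 3MC over DMSO by the authors' deposited ratio (mean of a gene's rows), for the 39 G2 and mitosis genes, 90 other genes of the same processes and all 17916 genes. The medians are -0.01, -0.00 and 0.00, and the curve of the 39 genes has its lowest step at Mad2l1.

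A second list held 103 other genes of G2 and mitosis, of which 90 had a row and 56 could be tested. Of these, 13 were lower (23.2%) and 5 higher (8.93%), against the same background of 21.6% and 19.5%, and the median log2 fold change was -0.07. The lowest in the authors' deposited table were Tuba1c, an alpha-tubulin, Cenpn, which reads the CENP-A nucleosome, Cdca5 (sororin), which protects cohesion, and Espl1 (separase), which cuts cohesin. Their log2 fold changes were -0.58 (Tuba1c, adjusted p = 5.31e-06), -0.64 (Cenpn, adjusted p = 1.95e-07), -0.52 (Cdca5, adjusted p = 2.15e-05) and -0.46 (Espl1, adjusted p = 6.97e-05), with groups apart in each. The dimmer Cenpn probe gave a smaller decrease of -0.30 (adjusted p = 0.00599, limma). The highest were Psrc1, a spindle protein, and Gtse1, a G2 protein, both known as p53 target genes, with 0.77 (Psrc1, adjusted p = 3.22e-09) and 0.54 (Gtse1, adjusted p = 1.20e-05). The call of Gtse1 was lost under median centring (0.41, adjusted p = 0.104). Cdc16, an anaphase-promoting complex subunit, and Ckap5, a microtubule polymerase, followed with 0.27 and 0.23 (adjusted p = 0.0232 and 0.0359). The groups of Cdc16 overlapped and those of Ckap5 were apart. These lowest and highest genes were picked by ratios of the same arrays, which made a call likely, so their p-values are descriptions. Leaving out 1 array ended the call of Cdc16 in 3 cases (down to 0.18, adjusted p = 0.204, without DMSO replicate 3; also without DMSO replicate 1 and 3MC replicate 2) and that of Ckap5 in 4 (down to 0.20, adjusted p = 0.115, without DMSO replicate 2; also without DMSO replicate 1, 3MC replicate 1 and 3MC replicate 3).

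Of 11 genes that act upstream, 6 could be tested. Mybl2, the B-Myb factor that replaces DREAM's repressive partners and activates mitotic genes, had 8.43, 8.46 and 8.23 in the 3MC arrays, against 8.74, 8.66 and 8.73 in the DMSO arrays (-0.34 ± 0.0875, adjusted p = 0.00310, limma). All its 3 probes had groups apart in that direction and 2 of them passed. Rb1, the retinoblastoma protein, had 8.79, 8.63 and 8.51 in the 3MC arrays, against 8.30, 8.20 and 8.16 in the DMSO arrays (0.42 ± 0.0888, adjusted p = 0.000314, limma), while its dimmer probe gave 0.12 (adjusted p = 0.313). Median centring ended the calls of Mybl2 (-0.45, adjusted p = 0.112) and Rb1 (0.31, adjusted p = 0.355). Trp53, E2f1, E2f4 and Lin37 did not pass, with log2 fold changes of 0.14, 0.21, 0.02 and -0.07. E2f1 passed under 4 of 15 alternatives, among them without 3MC replicate 2 (0.27, adjusted p = 0.0355), and had its smallest value under median centring (0.09, adjusted p = 0.820). The groups overlapped for each of these 4.

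**Figure D5:**
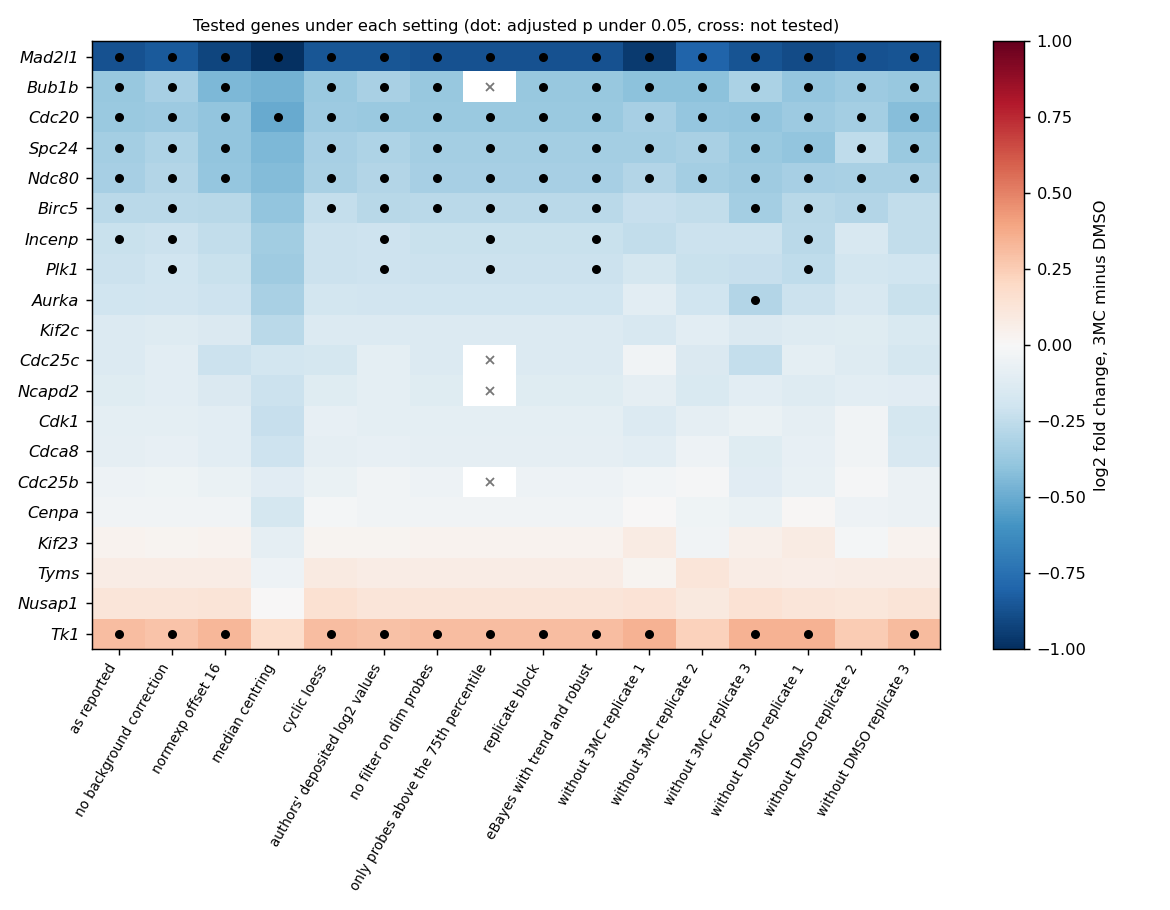
Log2 fold change, 3MC minus DMSO (colour), of the 20 tested genes (vertical axis) as reported and under 15 other settings (horizontal axis), with a dot where the adjusted p was under 0.05 and a cross where the probe was not tested. Mad2l1 and Cdc20 carry a dot in every column, and median centring keeps the dots of these genes alone.

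Cell type markers were measured in the same arrays. In whole ovaries, fewer cells of a type and less RNA per cell cannot be told apart. Defining genes of the labelled tissue were above the signal filter, both of oocytes (Gdf9, Zp3, Dazl) and of granulosa cells (Foxl2, Amh). All 12 tested of 17 leukocyte markers were lower in 3MC, with a median log2 fold change of -1.71 and a summed linear signal of 3636 to 3963 in the 3MC arrays, against 12105 to 12523 in the DMSO arrays. Of the 4 further leukocyte markers with a row, Fcer1g and H2-Aa were under the filter, and Ptprc and Itgam had no linked probe. The rows of these 4 had log2 ratios of 0.02 to 0.07 in the authors' deposited table. Of 6 tested granulosa markers, 1 was lower (Amhr2) and 2 were higher (Nr5a2 and Cyp19a1), and their median log2 fold change was 0.15. Their summed signal was 3949 to 4399 in the 3MC arrays, against 5020 to 5398 in the DMSO arrays, and Amhr2 makes up most of it, with mean log2 signals of 11.71 in 3MC and 12.11 in DMSO, while the other 5 averaged 6.18 to 8.35. Of 7 stromal and thecal markers 1 was lower and 5 higher, and of 11 oocyte markers 3 were lower and 5 higher. Of 4 surface epithelium markers 2 were lower and 1 higher, and 0 of 3 endothelial and 0 of 1 erythroid markers passed, also at an unadjusted p under 0.05. Beside all these marker counts, the background over 7643 genes linked in the same way was 21.6% lower and 19.5% higher. The summed signal over the 20 G2 and mitosis genes was 11561 to 12044 in the 3MC arrays, against 12923 to 13336 in the DMSO arrays, a ratio of 0.895. Bright genes weigh most in this linear sum, with Birc5 the brightest at a mean log2 signal of 10.83. The sum does not tell whether the whole list fell. Of the 20 genes, 12 did not pass, which does not show that they were unchanged. Among these 12, Kif23, Nusap1 and Tyms had positive log2 fold changes and the others negative ones. The part of these cell types in the changes of G2 and mitosis genes was not tested.

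The median scanner signal was 98.1 to 124.5 over the 3MC arrays and 107.8 to 109.1 over the DMSO arrays. Normalized arrays correlated across probes at r = 0.995 to 0.996 within a group and at r = 0.987 between groups. The standard error of a member's log2 fold change was 0.0842 to 0.103, set mostly by the spread shared over all probes, and the number of arrays limits the precision.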

How the data were processed

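RNA of 6 cultured ovary samples, 3 with 3MC and 3 with DMSO by their titles, was hybridised to 1 array each. The authors deposited scanner intensity for 25697 probes without detection p-values or control probes, and a table of log2 values of the same probes. The sources used here do not give how they were normalized, and per the submitters' processing notes lumi was used. Per the file headers, the authors' deposited comparison sheets hold, for each row, the 3MC over DMSO ratio, a fold with sign and a p-value, whose model is not stated and which was not used as a result. A gene ontology sheet with an enrichment score, deposited by the authors, was not used.

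The sheets and value tables share no identifier. The deposited ratios follow from the log2 table, so a row was linked to a probe where its ratio matched to within 0.6 units of the last of its 6 digits and no other partner remained (16156 rows, 62.9%). This rule was chosen after seeing the files, in place of a tolerance of 5e-05 (2656 rows). All of those 2656 kept their probe. The spread implied by the authors' p-values, which the link did not use, correlated with the measured spread at r = 0.513, against 0.0102 and 0.0177 for neighbouring probes. Symbols were updated by accession through RefSeq (GRCm38.p6) for 23735 rows.

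Intensities were corrected with normexp (offset 50), set to log2, quantile normalized and tested with limma 3.58.1 (two-sided moderated test on group alone, by lmFit and eBayes in R 4.3.3) on the 12848 probes above the median mean signal, adjusted by Benjamini-Hochberg over them. The fit was also run on simulated data with known changes, larger than most of those reported for the members. That run does not show how the fit recovers smaller changes. The probe of highest mean signal stands for a gene. Named are all members, Cdkn1a, the upstream regulators, and the 4 highest and 4 lowest other G2 and mitosis genes by the authors' ratio. Members and lists were chosen with earlier results of these data known. Alternatives were other background, scaling, filter, variance and link settings, the deposited log2 values, a replicate block, and leaving out each array.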

Additional observations from a re-analysis of the deposited data

How the results depend on the processing

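With 7 genes lower, 1 higher and a median log2 fold change of -0.13 as reported, median centring gave 2 lower, 0 higher and a median of -0.25, while the median of all tested probes was -0.08, against -0.00 as reported. It also lowered the passing probes of the whole array to 1106, against 4136, and keeping only probes above the 75th percentile gave 2512 over 6424 tested probes. Linking rows at a tolerance of 0.0001 left 5 tested genes, with 4 lower and a median of -0.37, and at 5e-05 the median was -0.37 over 7 genes, since rows far from a ratio of 1 are linked more easily. Leaving out 1 array gave 5 to 8 lower and 0 to 1 higher, with a median of -0.18 to -0.12. Deviations of same-numbered arrays correlated at -0.079, -0.0962 and 0.084, and those of differently numbered arrays at -0.068 to 0.141. These values show no shift shared by replicate number, but they cannot show whether samples were paired. With a replicate block, 6 were lower (Incenp lost its call) and 1 higher. Under the other alternatives 5 to 8 were lower and 1 higher, and no tested gene with a call changed direction. Among the members with a call, those of Mad2l1 and Cdc20 were kept under every alternative run for them. The link does not enter the count over all probes. No scan date or slide was used here, so batches were not tested, and signal over background could not be set without control probes.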
